A study of Solanum lycopersicum with 21 samples.

Results

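Of the 26850 genomic regions covered by the peaks of 6 tomato MADS-domain protein complexes, 1120 (4.17%, 95% Wilson interval 3.94 to 4.42) were bound with all 3 partners J, J2 and TM3, by both FUL2 and MC, yet held peaks of only 3 or 4 of the 6 complexes. These all-partner regions were selected on the peak calls themselves. Peaks of the 6 lists that overlapped by at least 1 bp were joined into regions, and a region was kept when it held peaks of exactly 3 or 4 lists, with at least 1 list of each partner and at least 1 of each protein. They made up 11.5% (258 of 2237) of the regions with 3 lists, 55.1% (862 of 1565) of the regions with 4 lists and 31.8% of the 3522 regions in which every partner was present. The regions that lay outside the selection were 1291 with peaks of all 6 lists, 1086 with 5 lists, 2682 with 3 or 4 lists in which a partner or a protein was missing, and 20671 with 1 or 2 lists. A further part of the selection rule, that both proteins be present, removed 25 regions with 3 lists.

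MADS-domain transcription factors bind DNA as dimers, and pairs of dimers can assemble into tetramers that contact neighbouring CArG-boxes, so that the partner of a protein can alter the sites it occupies. FUL2 and MC (MACROCALYX) belong to the AP1/FUL clade, whose members promote flowering and floral meristem identity. MC is known for its roles in sepal growth and inflorescence determinacy. J (JOINTLESS), of the SVP clade, and J2 (JOINTLESS-2), of the SEPALLATA clade, are needed for the abscission zone of the tomato pedicel, and TM3 belongs to the SOC1 clade of flowering regulators.

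The 6 complexes paired FUL2 with J, J2 and TM3 in turn, and MC with the same partners, and were examined by DAP-seq, in which proteins made in vitro, here in a wheat germ extract, are incubated with a genomic DNA library and the bound fragments are sequenced. FUL2 and MC carried the 3×FLAG tag used for the pull-down. Each complex had 3 libraries and the input, a reaction mixture without plasmid, had 3, giving 21 samples. The DNA came from leaves of the cultivar Moneyberg and carried no chromatin, so a peak marks a fragment that the complex could bind in vitro. The values are 1 peak list per complex, whose peak names refer to merged alignments, and depth per library is unknown from them. There was therefore no replicate error for any value below, no difference between lists or region classes was tested, and all intervals are 95% intervals that cover counting error only. The series has input libraries for all complexes in common, but how many complex and input libraries stand behind each list could not be settled. The J lists held 10449 peaks for FUL2 and 10818 for MC, the J2 lists 4940 for FUL2 and 4677 for MC, and the TM3 lists 10654 for FUL2 and 11457 for MC. The FUL2-TM3 list stood apart, with 46.2% of its peaks lying in the outer 1 Mb of a chromosome, against 12.4% of the MC-TM3 peaks and 1.67 to 2.03% in the other lists.

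The complexes contributed unevenly to the all-partner regions. MC-TM3 had a peak in 1055 of the 1120 regions (94.2%, 92.7 to 95.4) and FUL2-J in 1009 (90.1%, 88.2 to 91.7). FUL2-J2 had a peak in 852 (76.1%) and MC-J2 in 712 (63.6%). The MC-J complex was found in 386 (34.5%, 31.7 to 37.3) and FUL2-TM3 in 208 (18.6%, 16.4 to 21.0). Over all 26850 regions, J peaks were present in 38.9% with FUL2 and 40.3% with MC, J2 peaks in 18.4% with FUL2 and 17.4% with MC, and TM3 peaks in 39.6% with FUL2 and 42.1% with MC. These shares enter the selection rule and are given as a description. Within the all-partner regions J was represented mostly through FUL2, while TM3 was represented mostly through MC. The complete lists of FUL2-J and MC-J were of nearly equal length. Those of FUL2-TM3 and MC-TM3 were similar in length only when peaks near chromosome ends were counted, as given below.

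**Figure D1:**
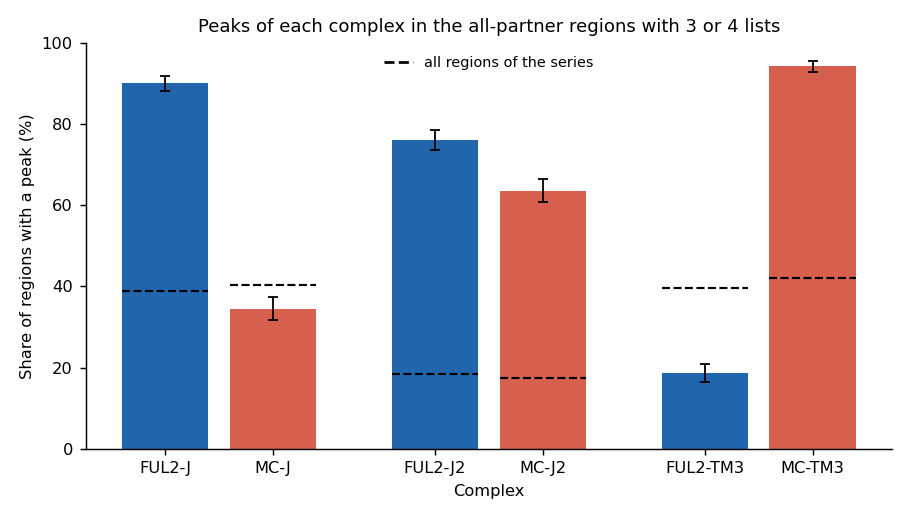
Share of the 1120 all-partner regions with 3 or 4 lists (y axis, %) that held a peak of each complex (x axis, FUL2 left of MC within each partner). Error bars are 95% Wilson intervals and dashed lines give the share among all 26850 regions; the bars of FUL2-J (90.1%) and MC-TM3 (94.2%) are the tallest, and those of MC-J (34.5%) and FUL2-TM3 (18.6%) the shortest.

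Seen per partner, J was found with FUL2 alone in 734 of the 1120 regions (65.5%), with MC alone in 111 (9.91%) and with both proteins in 275 (24.6%). For J2, the SEPALLATA-clade partner, the counts were 408 regions with FUL2 alone, 268 with MC alone and 444 with both (39.6%). For TM3 they were 65 with FUL2 alone, 912 with MC alone (81.4%) and 143 with both (12.8%). The share with FUL2 minus the share with MC was thus 55.6 percentage points for J, 12.5 for J2 and −75.6 for TM3. The J difference had the same sign on 12 of 12 chromosomes, between 46.5 and 69.1 points. For TM3, the share with MC exceeded the share with FUL2 on all 12, by 65.6 to 91.1 points. FUL2-J2 exceeded MC-J2 on 11 of 12 chromosomes, with differences from −2.97 to 28.1 points. The chromosomes are parts of the same lists and are not replicates.

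The TM3 lists differed in length once chromosome ends were left out. Away from the chromosome ends the FUL2-TM3 list held 5736 peaks and the MC-TM3 list 10040. When the lists of each partner were cut to equal length by −log10 q after leaving out peaks within 1 Mb of an end, the rule selected 833 regions, not all of them among the 1120, with FUL2-TM3 in 32.7% and MC-TM3 in 78.6% of them, a difference of −46.0 points. The J difference was then 51.7 points and the J2 difference 5.40 points. The direction was the same for each partner, and the J2 difference fell to less than 0.5 of its size.

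All 18 combinations that the rule allows were found, 6 with 3 lists and 12 with 4, and their numbers ran from 2 to 380. The commonest, FUL2-J with FUL2-J2, MC-J2 and MC-TM3, accounted for 380 regions (33.9%, 31.2 to 36.7). In these regions both proteins bound with J2, J was represented by FUL2 only and TM3 by MC only. A complex counted as absent has no listed peak, which does not show that it failed to bind. With partners pooled, the paper found that targets seemingly specific to FUL2 or MC fell slightly short of the threshold for the other protein. For the regions here this was not examined. It was followed by FUL2-J with FUL2-J2, MC-J and MC-TM3 in 145 regions, and by a pair of 3-list combinations, FUL2-J with MC-TM3 plus either FUL2-J2 (116 regions) or MC-J2 (111 regions). FUL2-J with MC-J, MC-J2 and MC-TM3 numbered 93, and FUL2-J with FUL2-J2, FUL2-TM3 and MC-TM3 numbered 76. The other 12 combinations held at most 45 regions each.

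**Figure D2:**
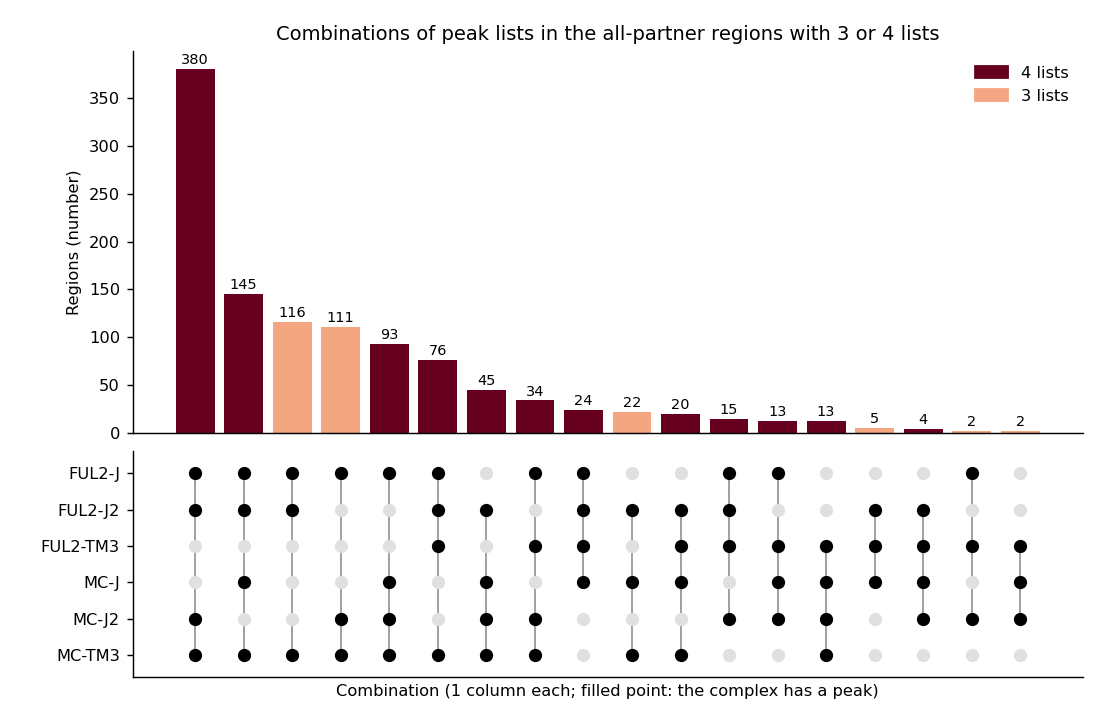
Number of all-partner regions (y axis, bars) for each of the 18 combinations of peak lists, with dark bars for 4 lists and light bars for 3; filled points below each bar mark the complexes with a peak. The first bar, 380 regions, is well above the next (145), and nearly all tall bars include FUL2-J and MC-TM3.

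FUL2-J and MC-TM3 occurred together in 955 of the 1120 regions (85.3%, 83.1 to 87.2). The corresponding share was 94.9% of the 5-list regions and 51.3% of the 3- or 4-list regions that missed a partner or a protein. The opposite pairing, MC-J with FUL2-TM3, was found in 81 all-partner regions, and 607 (54.2%) had neither of those complexes. Among the 862 regions with 4 lists, the partner bound by both proteins was J2 in 444 (51.5%, 48.2 to 54.8), J in 275 (31.9%, 28.9 to 35.1) and TM3 in 143 (16.6%, 14.3 to 19.2). With the 4000 strongest peaks per list, the J share was 17.6% (14.4 to 21.4), close to the TM3 share of 15.1%, and the J2 share 67.3%. The 5-list regions, which lack a single complex, lacked FUL2-TM3 in 558 of 1086 cases (51.4%), MC-J2 in 195, MC-J in 181, FUL2-J2 in 97, FUL2-J in 38 and MC-TM3 in 17.

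With 3 lists, each partner has a single list by the rule. J2 was bound by FUL2 in 143 and by MC in 115 of 258 regions, J by FUL2 in 229, and TM3 by MC in 249 (96.5%). With 4 lists, 596 of 862 regions (69.1%) had 2 complexes of each protein, 115 had 3 FUL2 complexes and 151 had a single one. As a share of each complete list, the all-partner regions took up 17.2% of the FUL2-J2 peaks and 15.2% of the MC-J2 peaks, the shortest lists. They took up 9.66% of the FUL2-J, 9.22% of the MC-TM3, 3.57% of the MC-J and 1.95% of the FUL2-TM3 peaks.

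Peaks in the all-partner regions were of middling strength. Strength is given as fold enrichment at the summit over the local background, as −log10 q, and as the percentile of a peak within its own list by −log10 q, where 0 is the weakest peak and 100 the strongest. These values come from the same peak calls as the selection and are descriptive. The median fold of J peaks was 4.29 with FUL2 (4.24 to 4.34) and 4.02 with MC, that of J2 peaks 4.17 with FUL2 and 4.37 with MC, and that of TM3 peaks 3.85 with FUL2 and 4.48 with MC (4.45 to 4.57). The folds spanned 1.55 to 9.06 over all 4223 peaks. The median −log10 q lay between 12.9 for FUL2-TM3 and 18.0 for MC-TM3.

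The median percentile over all lists was 49.5 (48.6 to 51.3) in the all-partner regions, against 62.7 in the 5-list regions, 80.9 in the 6-list regions, 52.5 in the other regions with 3 or 4 lists and 38.9 in the regions with 1 or 2 lists. Per list the medians in the all-partner regions were 42.8 for FUL2-J2, 46.7 for MC-J, 47.0 for FUL2-J, 49.2 for MC-J2, 57.9 for FUL2-TM3 and 58.4 for MC-TM3. In every list they were below the medians of the 5-list and of the 6-list regions. On each side of the limits of the rule, the median percentile was 37.3 in the all-partner regions with 3 lists, 52.5 in those with 4 lists, 44.9 in regions with 2 lists and 62.7 in regions with 5 lists. The weakest peak in any all-partner region had a −log10 q of 4.34, and the weakest in any list 4.01.

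**Figure D3:**
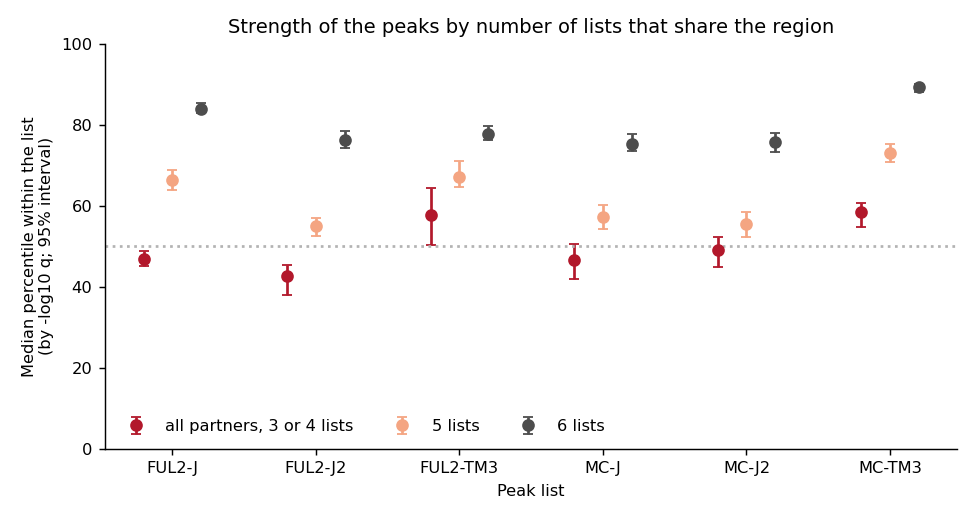
Median percentile of the peaks within their own list by −log10 q (y axis) for each peak list (x axis), in the all-partner regions, the 5-list regions and the 6-list regions, with 95% binomial intervals of the median; the dotted line marks percentile 50. In each list the all-partner regions lie lowest (42.8 to 58.4) and the 6-list regions highest.

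Over all the all-partner regions, complexes had stronger peaks where the other protein was also found with the same partner, with FUL2-TM3 as the exception. Among those with 4 lists, the intervals of MC-J and of MC-TM3 overlapped as well, as given below. FUL2-J2 peaks had a median percentile of 57.1 (52.5 to 60.9) in the 444 regions that also held an MC-J2 peak, and of 24.4 (22.5 to 28.8) in the 408 that did not. Their median folds were 4.49 with MC-J2 and 3.91 without it. Likewise, MC-J2 peaks had a median percentile of 59.5 (57.3 to 62.0) with FUL2-J2 and 31.2 (26.9 to 36.1) without. For J, the FUL2-J peaks stood at 59.3 with MC-J and at 42.6 without, and the MC-J peaks at 50.5 with FUL2-J and 33.7 without. The step was smaller for TM3. MC-TM3 peaks had a median percentile of 67.5 (60.6 to 73.8) with FUL2-TM3 and 57.2 (54.9 to 59.4) without, and the intervals of FUL2-TM3 with and without MC-TM3 (61.7 and 56.1) overlapped.

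The J2 pattern was as large among regions with the same number of lists. By the rule, an all-partner region in which both proteins share a partner has 4 lists. Restricting to 4 lists could therefore change only the values without the other protein. Within the 4-list regions alone, FUL2-J2 stood at 57.1 with MC-J2 and at 24.4 without, and MC-J2 stood at 59.5 with FUL2-J2 and at 31.2 without. In the 5-list regions the values were 60.9 and 27.0 for FUL2-J2, and 59.1 and 29.0 for MC-J2. The MC-J difference narrowed in the 4-list regions, to 50.5 with FUL2-J and 41.9 without, and there the intervals overlapped. So did those of MC-TM3, at 67.5 (60.6 to 73.8) with FUL2-TM3 and 58.4 (54.9 to 62.1) without, and those of FUL2-TM3.

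**Figure D4:**
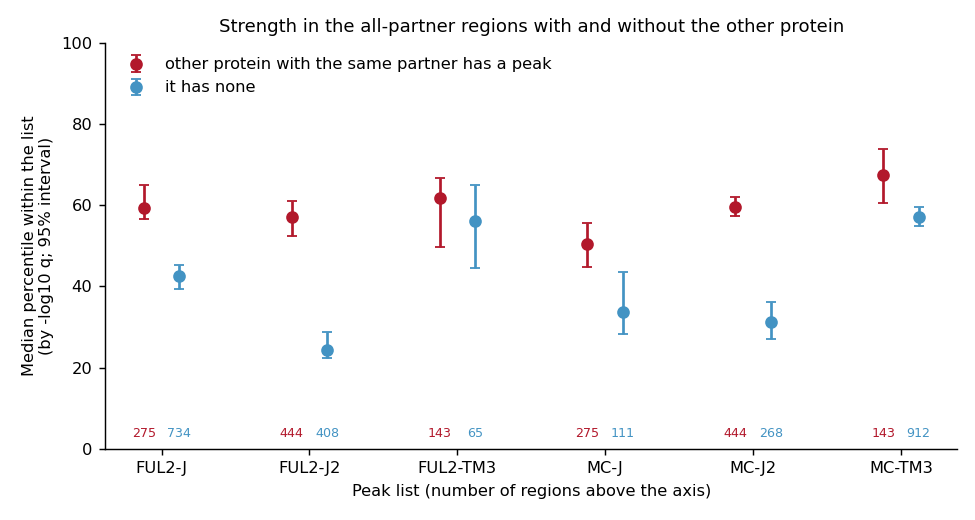
Median percentile within the list (y axis) of each complex's peaks in the all-partner regions (x axis: peak list), split by whether the other protein with the same partner had a peak in the region (left point of each pair) or not (right point). Bars are 95% binomial intervals and the numbers above the axis count regions; the largest gaps are those of FUL2-J2 (57.1 and 24.4) and MC-J2 (59.5 and 31.2).

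Few regions had a peak of a missing complex within 1 kb, but the share that list density alone would give was not computed. Of the 734 regions without MC-J, 23 (3.13%) had an MC-J peak within 1 kb and 211 (28.7%) within 10 kb. Of the 912 without FUL2-TM3, 12 had one within 1 kb (1.32%). For the other 4 complexes the share with a peak of the missing list within 1 kb was 1.12 to 6.15%. The median gap to the nearest peak of the missing list was 19.5 to 21.3 kb for FUL2-J, MC-TM3 and MC-J, and 44.1 to 56.6 kb for FUL2-TM3, FUL2-J2 and MC-J2. Outside the outer 1 Mb, the lists with the shorter gaps held 10040 to 10630 peaks and those with the longer gaps 4599 to 5736.

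The complexes of an all-partner region differed in strength about as much as in the other regions with 3 or 4 lists, without matching for list number. The weakest peak of a region had a median percentile of 23.2 and the strongest 72.5, with a median gap of 38.7 points (37.1 to 40.8) between them, against 49.3 in the 5-list, 41.8 in the 6-list and 38.0 (36.9 to 39.0) in the other regions with 3 or 4 lists. The weakest peak was below percentile 25 in 601 regions (53.7%), against 44.6% of 5-list, 26.7% of 6-list and 46.1% of the other 3- or 4-list regions. The strongest reached percentile 90 in 176 (15.7%), against 38.5% of 5-list, 67.1% of 6-list and 21.3% of the other 3- or 4-list regions. Only 191 of the 1120 (17.1%) had every peak at percentile 50 or above, and 31 (2.77%) at 75 or above. By percentile within its own list, FUL2-TM3 was, where present, the strongest complex of the region in 93 of 208 cases (44.7%) and MC-TM3 in 419 of 1055 (39.7%). By median fold (3.85) and median −log10 q (12.9), however, FUL2-TM3 had the lowest values of the 6 complexes in these regions, and its list is the one with many peaks near chromosome ends. FUL2-J2 and MC-J2 were the weakest by percentile in 34.9% and 35.0% of the regions that held them, the 2 highest such shares. In the other 3- or 4-list regions these shares were 38.2% and 40.7%. FUL2-TM3 was the strongest there in 41.9% and MC-TM3 in 34.1% of the regions that held them. In the 164 regions shared by FUL2-J and FUL2-TM3 the percentile of FUL2-J was lower by a median of 17.2 points (interval −21.3 to −13.5), and FUL2-J2 stood 27.3 points below FUL2-TM3 in 144 regions (−34.4 to −24.5). The 5-list and 6-list regions hold more peaks each, so their weakest and strongest peaks are drawn from more values. The other 3- or 4-list regions had 3 lists more often than the all-partner regions, so theirs are drawn from fewer values on average.

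The summits of the complexes lay close together. The median distance between the outermost summits of an all-partner region was 39 bp (37 to 42). It was 40 bp (38 to 41) in the other 3- or 4-list regions, which more often had 3 lists and so fewer summits. It was 47 bp in the 5-list and 47 bp in the 6-list regions, which have more summits. In the all-partner regions it was 33 bp with 3 lists and 41 bp with 4, and it exceeded 100 bp in 144 regions (12.9%). Both J2 complexes had their summits a median of 14 bp apart, within 50 bp in 403 of 444 regions (90.8%). That median was also 14 bp in the 5-list, the 6-list and the other 3- or 4-list regions. The J complexes were 18 bp apart in 275 regions and the TM3 complexes 33 bp apart (26 to 37) in 143, where 67.8% lay within 50 bp. The regions were 375 bp wide in the median (372 to 379), against 411 bp for 5 lists and 453 bp for 6. In a single region did one list contribute more than 1 peak.

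Under the rule, a list can be lost without its partner only from the partner bound by both proteins in a 4-list region. At a −log10 q of at least 10, 816 regions (72.9%) kept all their lists, 48 lost a list but no partner, 244 (21.8%) lost a partner and 12 lost every peak. J2 was lost from 147 regions, J from 115 and TM3 from 76. By list, 20.2% of the FUL2-TM3 peaks and 5.97% of the MC-TM3 peaks failed this threshold. At a fold of at least 3, 1009 regions (90.1%) kept all lists. With the 4000 strongest peaks of each list, which cuts the J and TM3 lists far more than the J2 lists, only 160 regions (14.3%) kept theirs.

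Along the genome, 1114 all-partner regions lay on the 12 chromosomes of the Moneyberg assembly, at 1.35 per Mb, and 6 on unplaced sequence. The density ran from 1.11 per Mb on chromosome 6 (58 regions) to 1.58 on chromosome 3 (108 regions). Distances are from the nearest chromosome end, taken as the last base of any peak. Of the all-partner regions 27 (2.42%, 1.67 to 3.50) lay within 1 Mb of an end, against 1.94% of the 5-list regions, 1.09% (0.649 to 1.82) of the 6-list regions, 4.20% (3.50 to 5.03) of the other regions with 3 or 4 lists and 24.8% of the regions with 1 or 2 lists. An even spread would place 2.91% there. Within 5 Mb lay 133 (11.9%, 10.2 to 14.0), against 10.9% of the 5-list, 6.92% (5.65 to 8.43) of the 6-list and 12.5% (11.3 to 13.8) of the other 3- or 4-list regions, with 14.6% for an even spread. The share of the all-partner regions exceeded that of the 6-list regions on 10 of 12 chromosomes, and that of the other 3- or 4-list regions on 5. More than 20 Mb from an end lay 49.9% of the all-partner, 56.0% of the 6-list and 50.9% of the other 3- or 4-list regions, where an even spread gives 41.8%.

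**Figure D5:**
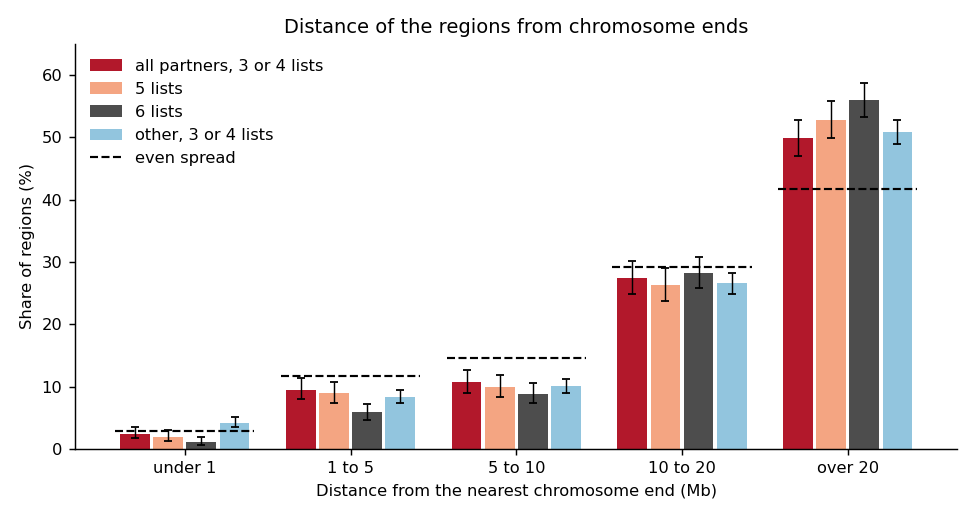
Share of the regions on the 12 chromosomes (y axis, %) by distance from the nearest chromosome end (x axis, Mb), for the all-partner, the 5-list, the 6-list and the other 3- or 4-list regions, with 95% Wilson intervals; dashed lines show an even spread. Within 5 Mb of an end the bars of the all-partner regions are taller than those of the 6-list regions, and beyond 20 Mb they are shorter (49.9% against 56.0%); the other 3- or 4-list regions (50.9% beyond 20 Mb) lie close to them except within 1 Mb.

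The leading complexes were the same at every distance. FUL2-J was present in 88.9 to 92.6% and MC-TM3 in 93.7 to 96.3% of the all-partner regions in each of the 5 distance classes. MC-J was present in 27.4% (19.8 to 36.5) between 1 and 5 Mb and in 36.5% (32.6 to 40.6) beyond 20 Mb, and FUL2-TM3 in 10.4% and 17.6% of those classes. MC-J2 was present in 48.1% (30.7 to 66.0) of the 27 regions within 1 Mb and in 75.5% (66.5 to 82.7) of the 106 between 1 and 5 Mb. Of the all-partner regions 584 (52.4%) had another region of any kind within 10 kb. Another region of 3 or more lists lay within 10 kb of 213 (19.1%, 16.9 to 21.5), against 21.6% of the 5-list and 26.7% (24.4 to 29.2) of the 6-list regions.

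Position relative to genes could be read on chromosome 1 for the 124 of its 138 all-partner regions that held a FUL2-J peak, through the annotation class assigned to that peak by ChIPseeker in the study. Distal intergenic sequence held 89 of the 124 (71.8%, 63.3 to 79.0), against 93 of 120 (77.5%) 5-list regions and 118 of 134 (88.1%, 81.5 to 92.5) 6-list regions. Promoters within 3 kb of a gene start held 23 (18.5%, 12.7 to 26.3), of which 8 lay within 1 kb, against 15.0% of the 5-list and 6.72% (3.57 to 12.3) of the 6-list regions. Introns held 9 (7.26%) and exons 3. The other regions with 3 or 4 lists had 18.2% in promoters, so that a share of this size was not limited to the all-partner regions. Regions with fewer than 3 lists had 82 of 587 there (14.0%, 11.4 to 17.0), and this interval overlapped that of the all-partner regions. Among these classes the 6-list regions had the lowest promoter share. In the 23 promoter regions the median of the mean percentile was 35.7 (27.8 to 55.2), and in the 89 distal regions 51.4 (44.6 to 54.7). These intervals overlapped. Of the promoter regions 12 of 23 held 4 lists, against 73 of 89 distal regions. Over all the all-partner regions, peaks had a median percentile of 37.3 with 3 lists and 52.5 with 4. Position and number of lists were not separated here.

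The all-partner regions named first were those with the highest percentile in their weakest list. Strong peaks of every complex they held follow from that choice. At chr10:56299036-56299429, 394 bp wide, FUL2-J reached a fold of 6.50 (−log10 q 34.3), FUL2-J2 of 6.94 (36.4), MC-J2 of 7.15 (38.0) and MC-TM3 of 7.14 (41.2), and the percentiles ran from 92.3 to 97.9. Its 4 summits lay within 11 bp, 10.8 Mb from the chromosome end, and MC-J and FUL2-TM3 had no peak there. The same 4 complexes were found at chr4:27237565-27237926, with folds of 6.25 (FUL2-J), 5.87 (FUL2-J2), 6.57 (MC-J2) and 5.73 (MC-TM3) and a lowest percentile of 86.7. At chr8:51868513-51868932 it was FUL2-J that was absent. FUL2-J2 had a fold of 5.54, MC-J of 5.97, MC-J2 of 6.72 and MC-TM3 of 7.15, with summits within 20 bp.

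The regions ranked highest in the other common combinations had lower folds in most of their complexes. At chr12:35245292-35245671, which held both J complexes, FUL2-J had a fold of 5.34, FUL2-J2 of 4.96, MC-J of 6.01 and MC-TM3 of 5.70. At chr7:8114759-8115157 FUL2-J had a fold of 5.34 and the MC complexes folds of 4.86 (J), 4.79 (J2) and 4.83 (TM3), and the percentiles ran from 83.8 to 94.0. With 3 lists, chr2:11806082-11806521 had folds of 4.59 (FUL2-J), 4.30 (FUL2-J2) and 5.42 (MC-TM3), with percentiles of 81.1, 77.5 and 94.6. It was annotated as distal intergenic, with Solyc02g005607 as the assigned gene. Here, as at chr3:34381616-34381975 (FUL2-J, MC-J2 and MC-TM3, percentiles of 67.7, 69.7 and 93.2) and at chr2:49838230-49838574 (FUL2-J2, MC-J and MC-TM3, percentiles of 67.2, 64.0 and 81.2), MC-TM3 was the strongest complex.

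Of the 173 all-partner regions whose FUL2-J peak could be annotated, on chromosome 1 and in the part of the annotation used here, 12 lay in a promoter within 1 kb of a gene start. Of those on a chromosome, the highest mean percentile was that of chr1:68007203-68007521, in the promoter of Solyc01g060040. FUL2 had a fold of 4.42 with J and 4.46 with J2, and MC one of 4.21 with J2 and 4.61 with TM3, with percentiles from 42.6 to 64.7. The promoter of Solyc01g059860 held chr1:67463591-67463942, where FUL2-J had a fold of 4.40, MC-J2 of 5.12 and MC-TM3 of 4.51. The other promoter regions among the 5 with the highest mean percentile lay on unplaced sequence, assigned to Solyc00g160020 once and to Solyc00g500021 for a pair of regions, and their folds were only 1.55 to 2.12. All 10 peaks of the all-partner regions with a fold under 2 belonged to 3 of the 6 regions on unplaced sequence. No gene with a name given in the study was among the genes assigned to these 173 regions.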

How the data were processed

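DAP-seq libraries of 6 complexes were analysed as 1 peak list per complex. Before deposit, the authors used Trim Galore for adapter removal, hisat2 for alignment against the Moneyberg assembly and MACS2 for narrow peaks, called at a threshold of 0.0001 (peak names refer to merged alignments, the number of libraries in each is unsettled, and tool versions are not given in the sources used here). Deposited values of a peak are its fold enrichment, a ratio over local background, its −log10 q (q-value scale), its summit offset and a score of 10 times −log10 q without decimals in nearly all peaks. The score and the −log10 p were not used. No per-sample column was left unused (0).

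Peaks were joined and described in Python 3.11.15 with pandas 2.3.3, numpy 2.4.6 and scipy 1.17.1. Figures were drawn with matplotlib 3.10.9. Joining was checked on simulated peaks and against bedtools 2.31.1 merge. Shares have Wilson intervals and medians binomial intervals, at 95%. Coordinates are 1-based. Regions named are the 3 with the highest percentile in their weakest list, the one highest by this measure in each of the 3 commonest 3-list and 4-list combinations, and the 5 annotated promoter regions (1 kb) with the highest mean percentile. The study's ChIPseeker annotation was used for classes and gene identifiers only, and gene names could not be added. The regions and rules were chosen with earlier results of these data known. Alternatives were other joining rules, thresholds, list lengths and exclusions of chromosome ends and unplaced sequence.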

Additional observations from a re-analysis of the deposited data

How the results depend on the processing

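The alternatives covered 11 values: the number of regions, the share with 4 lists, the partner bound by both proteins (J, J2 or TM3), the share within 1 Mb of an end, the summit distance, the median percentile and the FUL2 minus MC difference of each partner. None of these differences changed sign. Of 109 recomputed values, 87 stayed within the interval of the value reported (or, for the number of regions, within 1.5 times) and 22 did not. Joining book-ended peaks gave identical values, and overlap of 50% of both peaks, summits within 100 bp, and leaving out unplaced sequence or the outer 1 Mb moved none past that limit.

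With the 4000 strongest peaks per list, 568 regions were selected, of which 81.9% had 4 lists. J was bound by both proteins in 17.6% and J2 in 67.3% of these, 0.707% of regions lay within 1 Mb of an end, the outermost summits were 33 bp apart and the median percentile was 77.4. The share with FUL2 minus that with MC was 50.7 points for J, 4.40 for J2 (interval −0.435 to 9.24, which includes 0) and −60.9 for TM3. By construction, this setting shortens the J and TM3 lists more than the J2 lists.

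At a −log10 q of at least 10, TM3 was bound by both proteins in 14.0% of 4-list regions, the median percentile was 55.2, and the differences were 7.02 points for J2 and −81.1 for TM3. The median percentile was 51.7 at a fold of at least 3, and 55.5 when ranked by fold in place of −log10 q. A pair of alternatives was chosen after seeing the data. Cutting the lists of a partner to equal length gave a J2 difference of 6.07 points. Doing so without the outer 1 Mb gave both proteins with J in 36.3% of 4-list regions, a median percentile of 57.5, and differences of 51.7 points for J, 5.40 for J2 and −46.0 for TM3. Percentiles were ranked in the complete lists before any peak was dropped. Settings that drop peaks of low −log10 q therefore leave peaks of higher percentile by construction. For the other moves not ascribed to a setting's construction, the cause was not tested.

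No paired analysis was possible because each list pools its libraries and gives no value per replicate. Leaving out 1 replicate at a time was not run for the same reason. Depth per library is unknown from the lists, and a complex without a listed peak is one below the threshold of its list.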
